A study of Mus musculus with 9 samples.

Results

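The comparison described here set white adipose tissue of mice on a high fat diet against the same tissue of mice on a normal diet, both given vehicle. It covers 6 of the 9 libraries in the series, 3 per diet, taken by their labels alone. All mice were male C57BL/6, and tissue was taken after 9 weeks on the diet. The remaining 3 libraries came from mice on the high fat diet given the compound B-LGND2, and the study's title names a ligand of estrogen receptor beta. These libraries served in filtering, scaling and estimating the spread. They also entered the mean levels by which rows were selected for naming or grouped by abundance. Some of their values are given for comparison. The labels do not give the fat depot, the age of the mice or the composition of either diet. They do not say whether 1 library stands for 1 animal, so p-values measure the spread between libraries. Poly(A) RNA was sequenced on an Ion Proton instrument, and the 6 libraries held 30067542 to 39443545 counted reads.

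White adipose tissue stores surplus energy as triglyceride in adipocytes and releases it as fatty acids when energy is scarce. It also holds vascular, stromal and immune cells, and in mice a prolonged high fat diet is known to enlarge adipocytes and to change the immune cells between them. A change in tissue RNA can therefore come from fewer or more cells of a type or from less or more RNA per cell, and bulk libraries cannot tell these apart. The deposited table identifies each row only by its GI number, a retired identifier of sequence records. None of the 39130 GI numbers matched an identifier in the RefSeq gene table at hand (0 matches), so adipocyte, immune and other cell markers could not be looked up and the labelled tissue was not checked against them. Results are given per row, for the leading rows in each direction, and for groups of rows formed by abundance.

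Before the tests, the libraries were compared with each other on log2(CPM + 0.5), where CPM is the usual depth-scaled count, here relative to the scaled library total. Of the 39130 rows, 28831 were abundant enough to be tested and 10299 were not. Normal diet replicates 1 and 3 were nearly the same, with a correlation of 0.991 across rows and 1.45% of rows apart by over 2-fold. Normal diet replicate 2 stood apart from both, at 0.865 and 0.859, with 27.1% and 28.1% of rows apart by over 2-fold. It was closer to high fat diet replicate 2, at 0.958 and 8.02% of rows. High fat diet replicate 1 was closer to normal diet replicates 1 and 3, at 0.947 and 0.952, than to the other high fat diet libraries, at 0.920 and 0.916. High fat diet replicate 3 was at 0.823 to 0.916 with the other 5 libraries, nearest to high fat diet replicate 1. The mean correlation was 0.902 over pairs from the same diet and 0.902 over pairs from different diets. Rows are not independent replicates, so these correlations describe the libraries and carry no test. The median standard deviation of a row was 0.343 on the log2 scale across the 3 normal diet libraries and 0.378 across the 3 high fat diet libraries, against 0.136 across normal diet replicates 1 and 3 only. Whether normal diet replicate 2 carries the right label could not be settled from the files, and every difference between the diets rests on the labels as given. Values are therefore also given without it.

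**Figure D1:**
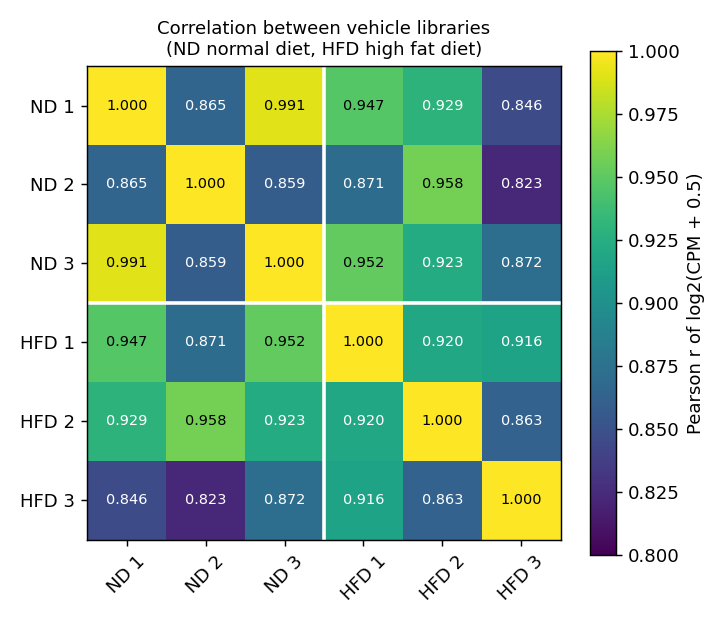
Pearson correlation of log2(CPM + 0.5) across 28831 tested rows between the 6 vehicle libraries (ND, normal diet; HFD, high fat diet), with white lines between the diets. The brightest pair off the diagonal is ND 1 with ND 3 at 0.991, and ND 2 is brightest with HFD 2 at 0.958.

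The question was which sequences differed in level between the diets. Leading rows were taken by p-value from those averaging 5 CPM or more in the whole table and with diets that did not overlap. The first on the higher side of the high fat diet was GI 115392137. It was at 4.49, 10.04 and 3.05 CPM in normal diet replicates 1, 2 and 3 and at 25.03, 41.2 and 31.3 CPM in the high fat diet replicates. Normal diet replicate 2 was the highest of its group, and the lowest high fat diet library was still 2.49-fold above it. The fitted difference, high fat minus normal, was 2.65 ± 0.40 on the log2 scale (SE), or 6.28-fold, with a 95% interval of 1.74 to 3.57. The second was GI 31542808, at 2.92, 9.74 and 2.10 CPM on the normal diet and 28.6, 55.3 and 42.5 CPM on the high fat diet. Its order of libraries was the same as for the first row: normal diet replicate 2 was the highest of its group and high fat diet replicate 2 the highest of all 6. The difference was 3.41 ± 0.52 (SE), or 10.6-fold, with an interval of 2.21 to 4.60. The libraries with B-LGND2 were at 11.4 ± 1.64 CPM (SD, n = 3) for GI 115392137 and 7.28 ± 2.04 CPM (SD, n = 3) for GI 31542808. In both rows these 3 libraries were below every high fat diet vehicle library, as a description only, since the rows were chosen for high values in the latter.

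In the other direction the first row was GI 149251591. It was at 48.9, 63.04 and 48.8 CPM in the normal diet replicates and at 18.6, 11.8 and 11.4 CPM in the high fat diet replicates. The lowest normal diet library was 2.63-fold above the highest high fat diet library, and the difference was -1.97 ± 0.26 (SE), with an interval of -2.56 to -1.38. The second row, GI 149251301, was at 30.5, 59.7 and 36.6 CPM on the normal diet and at 8.65, 6.90 and 7.22 CPM on the high fat diet. Here the groups were 3.52-fold apart at their nearest, and the difference was -2.42 ± 0.31 (SE), with an interval of -3.14 to -1.69. In contrast to the rows above, normal diet replicate 2 lay on the far side from the high fat diet in both. With B-LGND2 the levels were 9.34 ± 2.17 CPM (SD, n = 3) for GI 149251591 and 4.94 ± 1.36 CPM (SD, n = 3) for GI 149251301. Each of the 4 rows was chosen for its lack of overlap and small p, from 336 candidates higher and 1422 lower, so the separation itself is a description. None of them passed the test across all rows, with a limma-voom adjusted p of 0.601 for each. Without normal diet replicate 2 all 4 passed, the limma-voom adjusted p being 0.0247 for both higher rows and 0.0395 and 0.026 for GI 149251591 and GI 149251301. Over the 20 alternatives the limma-voom or limma-trend adjusted p ranged from 0.0247 to 0.946 in each higher row, from 0.0395 to 0.946 in GI 149251591 and from 0.026 to 0.946 in GI 149251301, and leaving out normal diet replicate 2 was the 1 alternative under which they passed.

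**Figure D2:**
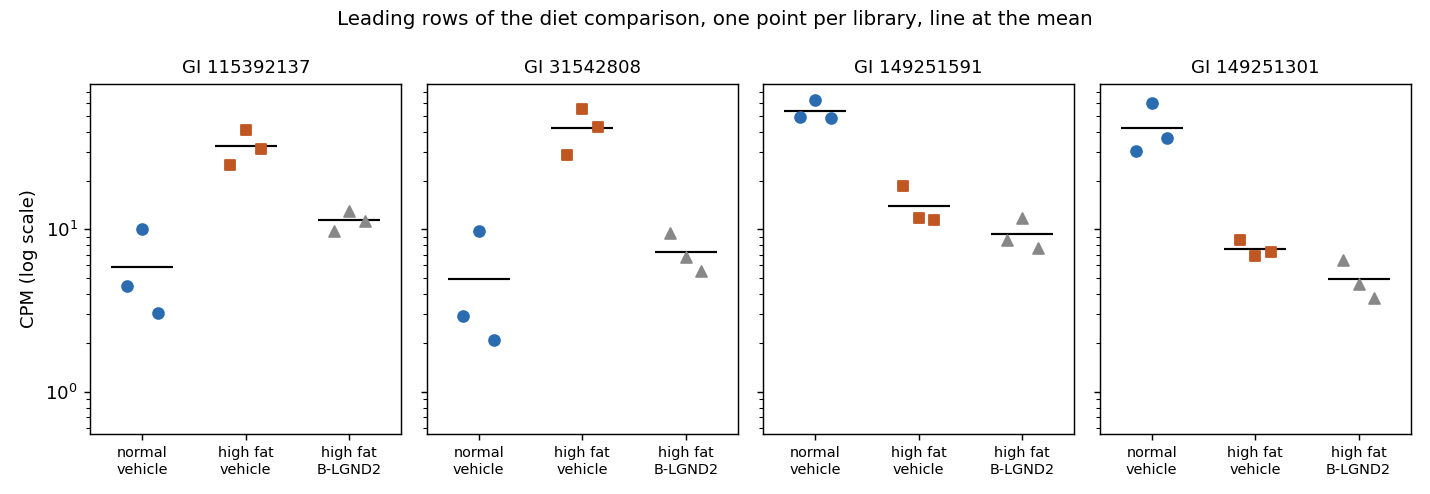
CPM on a log axis for the 2 leading rows higher and the 2 leading rows lower on the high fat diet, 1 point per library in replicate order, with a line at the group mean. Vehicle groups do not overlap in any panel, with 10.04 CPM as the highest normal diet value and 25.03 CPM as the lowest high fat diet value in GI 115392137; the B-LGND2 libraries are shown in grey for comparison.

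No change between the diets passed the threshold: of 28831 rows, 0 were higher and 0 lower by the limma-voom adjusted p (0% in each direction). Unadjusted, p was under 0.05 for 1240 rows on the higher side (4.3% of those tested) and 1069 on the lower side (3.71%), and limma-trend, the other test run, also called 0 with 1394 and 1087 at that level. Single libraries moved these counts by over 1.5 times. They were 530 and 448 without normal diet replicate 3, 779 and 622 without high fat diet replicate 3, 2283 and 3141 without normal diet replicate 2, and 3499 and 1227 without high fat diet replicate 2. The lower count was 613 without normal diet replicate 1, and the higher count was 807 without high fat diet B-LGND2 replicate 3. Library quality weights gave 3081 and 2615, and the vehicle libraries alone 800 and 293. The split of unadjusted calls depended on the scaling: scaling by total counts alone gave 2650 higher and 206 lower, and moved the median difference of all rows from 0.05 to 0.29. The 3 libraries of one diet lay entirely above or below those of the other in 1557 rows on the higher side (5.4%) and 1822 on the lower side (6.32%), or 3183 and 462 with total counts alone. For 3 against 3 libraries with labels given at random, the mean share of such rows over both directions is 0.1. Most of the separations seen were narrow. The median gap between the nearest libraries of the diets was 0.12 on the log2 scale, 139 rows had a gap over 0.5 and 17 had a gap over 1, among them the 4 rows named above. Rows found with one diet only were not seen: 0 rows had at least 10 counts in all libraries of one diet and 0 counts in all of the other, in either direction. The count was 2 rows, both on the high fat diet side, when high fat diet replicate 2 was left out.

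The intervals show which changes these libraries could have left out. The difference was over 1 on the log2 scale in either direction, a change of over 2-fold, in 4346 rows (15.1%), and in 7013 rows (24.4%) without normal diet replicate 2. With all libraries, the 95% interval of the difference lay wholly within 1 of 0 in 8165 rows (28.3%), so for these rows a 2-fold difference between the diets lay outside the interval. For the other rows it did not. Over all tested rows, the median distance from the estimate to the end of its interval was 0.963. Without normal diet replicate 2 the interval lay within 1 of 0 in 22.8% of rows.

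Without normal diet replicate 2, limma-voom called 74 rows higher (0.257% of 28765 tested) and 208 lower (0.723%) on the high fat diet. The 74 higher rows differed by a median of 2.5 on the log2 scale, in a range of 0.99 to 4.60, against a median of -0.01 over all rows in that fit. Their median level was 10.6 and 9.80 CPM in normal diet replicates 1 and 3 and 41.0, 62.1 and 75.2 CPM in the high fat diet replicates. The library left out, normal diet replicate 2, had a median level of 37.5 CPM and lay nearer to the high fat diet mean than to the mean of normal diet replicates 1 and 3 in 68 of the 74 rows. The 208 lower rows differed by a median of -2.18, in a range of -4.58 to -1.12. They had a median level of 27.1 and 30.5 CPM in normal diet replicates 1 and 3 and of 5.51, 7.47 and 7.38 CPM in the high fat diet replicates. Normal diet replicate 2 had a median of 2.55 CPM in these rows, below all 3 high fat diet libraries, and lay nearer to the high fat diet mean in 206 of 208. The same held in 58.3% of all tested rows, in 47% of the 4186 rows over 2-fold higher without that library and in 93.3% of the 2827 rows over 2-fold lower, so the count for the 208 rows is near that of all rows lower to this extent. The called rows were chosen where normal diet replicates 1 and 3 differ from the high fat diet, and this count is a description of the library. With all libraries, the diets did not overlap in 27 of the 74 rows (36.5%, against 5.4% of all rows) and in 15 of the 208 (7.21%, against 6.32%). Because of how the called rows were chosen, the shares of all rows are not a like baseline. Without normal diet replicate 2, 5676 of all tested rows lay higher without overlap and 5848 lower. With it, 1557 and 1822 of these remained. The median differences of the 74 and the 208 rows with all libraries were 1.85 and -1.09. In the B-LGND2 libraries the median level was 31.6 to 49.7 CPM for the higher rows and 2.69 to 3.16 CPM for the lower rows.

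These calls depended on further single libraries. They fell to 0 higher and 0 lower in limma-voom when normal diet replicate 1, normal diet replicate 3, high fat diet replicate 3, high fat diet B-LGND2 replicate 1 or high fat diet B-LGND2 replicate 3 was also left out, with 921 to 2314 higher and 1229 to 2537 lower rows at an unadjusted p under 0.05. Leaving out a normal diet library in this way leaves a single one, which is assumed to vary like the other groups. They also fell to 0 and 0 when only the 5 remaining vehicle libraries were fitted, with 1874 and 2269 rows at an unadjusted p under 0.05. The counts were 6 and 23 when high fat diet replicate 2 was also left out, and 448 and 353 when high fat diet replicate 1 was. The 2 B-LGND2 libraries on which the calls depended took no part in the difference itself. The library was left out because it stood apart, and the spread between normal diet libraries is smaller without it by construction.

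**Figure D3:**
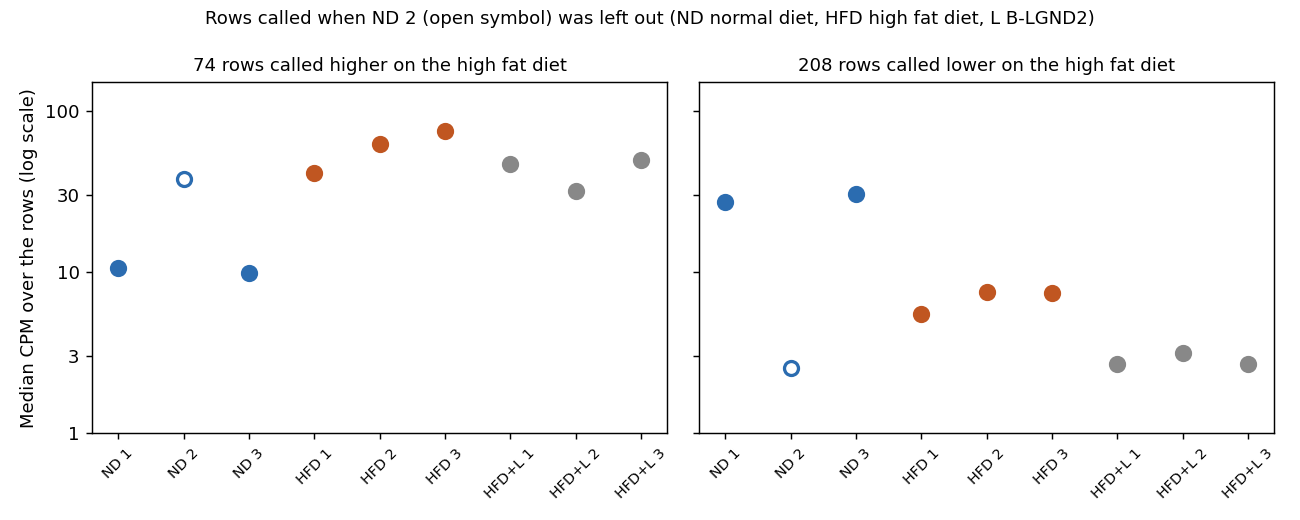
Median CPM, on a log axis, of the 74 rows called higher (left) and the 208 called lower (right) when normal diet vehicle replicate 2 was left out, 1 point per library (ND, normal diet; HFD, high fat diet; L, B-LGND2). The open symbol is the library left out, at 37.5 CPM on the left and 2.55 CPM on the right, on the high fat diet side of ND 1 and ND 3 in both panels.

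Counts were less concentrated in the most abundant rows in each high fat diet library than in every normal diet library. These shares are taken within a library and do not depend on the scaling. The 100 most abundant rows of each library took 30.2%, 31.5% and 31.02% of counts in the normal diet replicates and 26.1%, 25.8% and 18.9% in the high fat diet replicates. The groups did not overlap, and normal diet replicate 2, which stood apart row by row, was in this measure close to the others of its diet. The 10 most abundant rows took 14.9%, 16.5% and 15.8% on the normal diet and 12.0%, 11.3% and 7.34% on the high fat diet. It took 652, 562 and 616 rows to hold 50% of the counts on the normal diet and 896, 783 and 1426 rows on the high fat diet. The effective number of rows, the exponential of the Shannon entropy of the count shares, was 3053 ± 243 (SD, n = 3) on the normal diet and 4831 ± 1290 (SD, n = 3) on the high fat diet, a ratio of 1.58. High fat diet replicate 3 was the most even library at 6316, the other high fat diet libraries were at 4224 and 3952, and the normal diet libraries were at 3293, 2808 and 3057. Without high fat diet replicate 3 the difference between the diet means was 1035 rows in place of 1778.

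The exact permutation test of the 6 labels (two-sided) gave p = 0.10 for the effective number of rows, the smallest value that 3 against 3 libraries can give. The measure was chosen after the libraries had been seen. It was one of 10 related measures, with a Benjamini-Hochberg adjusted p of 0.125 in the exact permutation test for those without overlap. The number of rows with any count did overlap, at 35589 to 37412 on the normal diet and 36890 to 37896 on the high fat diet, also at an equal depth of 30067542 counts (35447 to 37065 against 36616 to 37896). A set of 115 rows, picked on the normal diet libraries as abundant in normal diet replicates 1 and 3 (at least 100 CPM) and nearly missing from replicate 2 (at most 1 CPM), took 10.8%, 0.00306% and 11.3% of counts on the normal diet and 5.49%, 1.83% and 2.12% on the high fat diet. With these rows left out the effective number was 3745, 2808 and 3526 on the normal diet and 4447, 3915 and 6339 on the high fat diet, still without overlap. With B-LGND2 it was 3643, 5010 and 3803 over all rows, also above the 3 normal diet libraries. With the 115 rows left out the B-LGND2 libraries were at 3641, 5181 and 3800. The first of these was below normal diet replicate 1, at 3745, so these groups then overlapped.

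**Figure D4:**
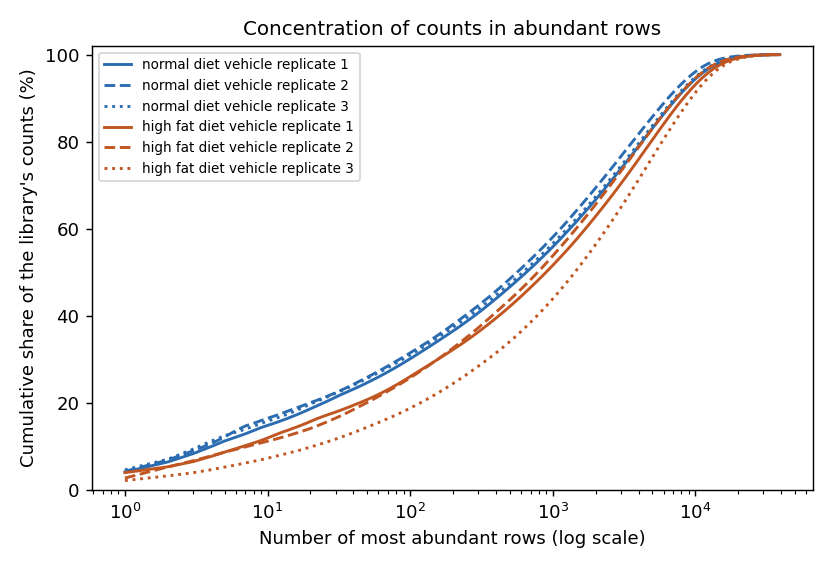
Cumulative share of each vehicle library's counts, in percent, against the number of most abundant rows on a log axis. At 100 rows the 3 normal diet curves lie at 30.2% to 31.5% and the 3 high fat diet curves at 18.9% to 26.1%, with high fat diet replicate 3 the lowest.

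The abundant rows themselves were largely different ones in different libraries. The lists of the 100 most abundant rows of the 6 libraries held 213 rows between them, of which 21 were in all 6 lists. Those 21 took 10.7%, 17.4% and 11.3% of counts in the normal diet replicates and 11.3%, 12.6% and 8.09% in the high fat diet replicates, so the diets overlapped. Their median difference was -0.38 on the log2 scale, in a range of -1.62 to 1.22, with 16 of 21 below 0, against a median of 0.05 and 46.4% below 0 over all tested rows. Without normal diet replicate 2 their median was -0.18, and -0.01 over all rows. Scaled by total counts, 11 of the 21 were below 0 and their median was -0.15, against 0.29 over all rows. None passed the test in limma-voom (smallest adjusted p 0.601), and 3 of 21 had an unadjusted p under 0.05 (14.3%, against 8.01% of all rows). In 4 of 21 all high fat diet libraries were below all normal diet libraries, against 6.32% of all rows. In the highest of the 5 abundance classes described below this share was 12.0%. There the median difference was -0.16, and 34.7% of rows were above 0. A lean to the lower side under this scaling was thus not particular to the 21 rows. The other 192 rows, among the 100 most abundant in some libraries only, took 24.03%, 16.7% and 24.1% on the normal diet and 19.4%, 17.9% and 15.03% on the high fat diet. Normal diet replicate 2 was here below 2 of the high fat diet libraries. The median difference of these rows was 0.29, and -0.29 without normal diet replicate 2, so the sign of this median depended on that library. Of the 192 rows, 43 belonged to the set of 115 picked as nearly missing from that library, against 0 of the 21. How much of the change of sign came from these 43 rows was not tested.

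To see where in the range of abundance the diets differed, the tested rows were put into 5 classes of equal size by their mean level over all 9 libraries, with median levels of 0.438, 1.48, 5.71, 19.2 and 66.3 CPM. From the lowest class to the highest the median difference was 0.30, 0.28, 0.10, -0.09 and -0.16 on the log2 scale. Without normal diet replicate 2 it was 0.16, 0.17, 0.02, -0.14 and -0.14, a smaller difference between the ends. In the lowest class the diets did not overlap in 495 rows on the higher side (8.58%) and 117 on the lower side (2.03%), against 5.4% and 6.32% over all rows. In the highest class these were 44 rows (0.763%) and 690 rows (12.0%). At an unadjusted p under 0.05 in limma-voom the lowest class held 338 higher and 69 lower rows, of 5766. The highest class held 70 higher and 449 lower, of 5767. Over all rows the shares were 4.3% and 3.71%, and no row was called after adjustment. These counts rest on the scaling, since total counts alone gave 2650 higher and 206 lower over all rows. Scaled by total counts, the medians were 0.55, 0.52, 0.34, 0.15 and 0.08, in the same order. Rows without overlap in the highest class then numbered 309 on the higher side and 168 on the lower side, of 5767. In the lowest class they numbered 798 and 50, of 5766, and over all 28831 rows 3183 and 462. A change of scaling multiplies each library by 1 factor, which moves all classes by nearly the same amount. That the decline appeared under both scalings is therefore no test of it. The side on which abundant rows lay depended on the scaling.

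Library by library, the diets overlapped in both the lowest and the highest class. The median deviation of rows in the lowest class from the mean of the 6 libraries was 0.060, -0.192 and -0.152 in the normal diet replicates and 0.061, -0.048 and 0.107 in the high fat diet replicates. In the highest class it was -0.074, 0.249 and 0.051 on the normal diet and -0.154, 0.066 and -0.173 on the high fat diet. Normal diet replicate 1 lay among the high fat diet libraries and high fat diet replicate 2 among the normal diet libraries, in both classes. The contrast between the lowest and the highest class differed by 0.297 between the diet means, against an SD of 0.253 between libraries of a diet. It was 0.451 (SD 0.213) without normal diet replicate 1, 0.395 (SD 0.232) without high fat diet replicate 2, 0.212 (SD 0.226) without normal diet replicate 2 and 0.154 (SD 0.187) scaled by total counts. The contrast thus kept its direction in these settings, while its size depended on single libraries. With total counts the contrast was smaller, but the fitted medians moved together. They went from 0.30 to 0.55 in the lowest class and from -0.16 to 0.08 in the highest. The contrast is taken on log2(CPM + 0.5), where 0.5 is close to the median of 0.438 CPM in the lowest class. Why the 2 measures differed was not tested. Without normal diet replicate 2 rows without overlap made up 14.1% of the lowest class on the higher side and 9.63% on the lower side, and 22.9% and 29.2% of the highest class, against 19.7% and 20.3% of all rows. Precision also changed with abundance: the interval of the difference lay within 1 of 0 in 5.90% of rows in the lowest class and in 50.5% in the highest.

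**Figure D5:**
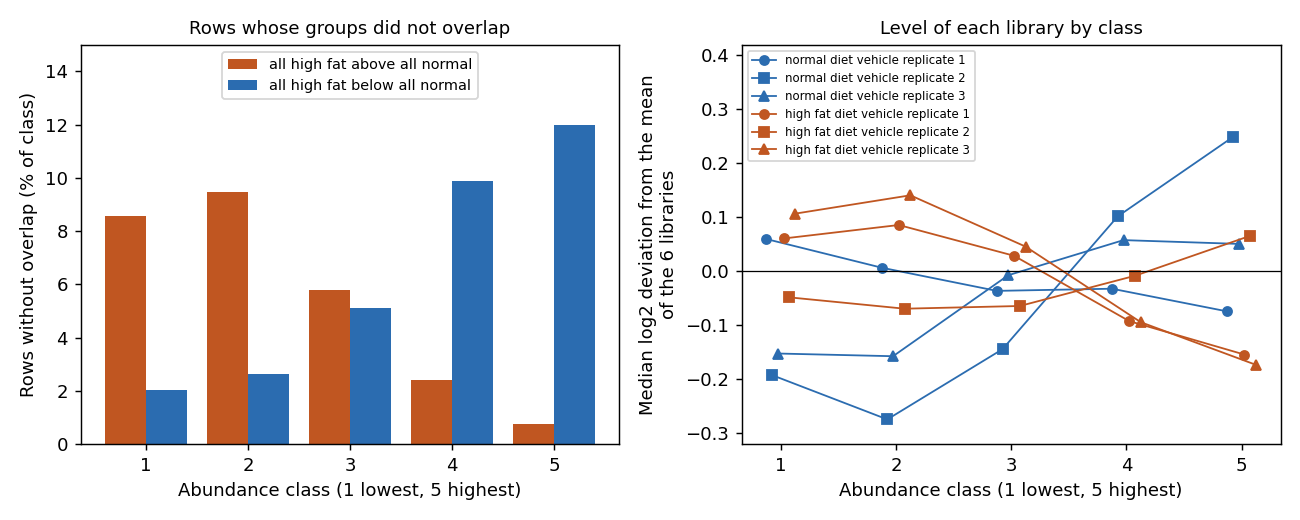
Left, rows whose diets did not overlap, as a percentage of each abundance class, with all high fat diet libraries above (orange) or below (blue) all normal diet libraries, from 8.58% and 2.03% in class 1 to 0.763% and 12.0% in class 5. Right, the median log2 deviation of each vehicle library from the mean of the 6 libraries in each class, where lines of both diets cross and overlap.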

How the data were processed

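The authors deposited raw counts of reads (whole numbers) in 1 table of 39130 GI numbers and 9 libraries. STAR 2.5.2 and build mm9 appear in the submitters' processing notes with no stated role. Counting, annotation, strand use and reads with several matches were not given in the sources used here. Rows sharing reads with near-identical, overlapping or antisense sequences are therefore uncertain. Columns were matched to samples by the number in the sample titles, and 0 columns were left unmatched.

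Tested rows had, in 3 or more libraries, the CPM that 10 counts give at the median library size, and a sum of at least 15 counts. Scaling used trimmed means of log ratios (fractions of 0.3 and 0.05), and 1 CPM equals 26.7 to 37.2 counts in the vehicle libraries. The test was limma-voom (R 4.3.3, limma 3.58.1) on a group-means model of the 9 libraries, two-sided and with Benjamini-Hochberg adjustment over all tested rows and a threshold of 0.05. Negative binomial count models were not used, because the table's column names could not be read by the automated unit check. The fit was tested on simulated counts in which all libraries of a group varied alike. No library stood apart there, so the simulation does not cover data with one like normal diet replicate 2. Libraries of one diet differed by more than counting noise (chi-square per degree of freedom at least 14.2, the lowest between normal diet replicates 1 and 3). This value cannot tell whether 2 libraries came from the same animal or RNA sample. Named rows were, in each direction, the 2 with the smallest p among rows of at least 5 mean CPM and no overlap between diets. The comparison, rules and groups were chosen with earlier results of these data known. Gene and marker lists were drawn up but could not be applied to GI numbers.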

Additional observations from a re-analysis of the deposited data

How the results depend on the processing

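Over the alternatives to the fit of all libraries, the number of called rows was 0 in 38 of 40 recomputations. Omitting single libraries gave 0 to 74 rows higher and 0 to 208 lower, the highest without normal diet vehicle replicate 2. In that fit, the count of higher rows was 244 with scaling by total counts and 45 with no filter. Higher and lower rows numbered 49 and 103 when scaling ignored the 50 most abundant rows, 158 and 326 with the filter of 5 CPM in 3 libraries, 346 and 581 with library quality weights, and 0 and 0 with vehicle libraries only. They numbered 33 and 92 without the 115 rows nearly missing from normal diet vehicle replicate 2, an alternative chosen after the data were seen, as was applying each alternative to that fit. Leaving out a further library gave 0 to 448 higher and 0 to 353 lower. Rows without overlap between diets numbered 3379, and 1509 with the filter of 5 CPM in 3 libraries, where 15406 rows were tested; leaving out each library gave 3347 to 11449, the highest without normal diet vehicle replicate 2, where fewer libraries make overlap rarer. Without the 115 rows the number was 3280. Apart from the filter and the left-out libraries, the cause was not tested. The 4 named rows kept their direction in 80 recomputed values. They were chosen for diets that did not overlap, so these alternatives could hardly have reversed them. The kept direction is therefore no test. No paired analysis was possible because the labels pair no libraries. Count models (edgeR, DESeq2) were not run. Depth was similar between the libraries, and the least abundant rows had the fewest intervals within 1 of 0.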
